A study of Mus musculus with 9 samples.

Results

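The axon guidance genes described here are those of the semaphorin, plexin, neuropilin, ephrin, Eph receptor, Slit, Robo, netrin and Unc5 families, in macrophages kept with sensory neurons, with transforming growth factor beta (TGF-β) or alone. They were picked by gene symbol (Sema3 to Sema7, Plxn, Nrp, Efn, Eph, Slit, Robo, Ntn and Unc5) with no cut on their values. The choice of these families was nevertheless made with earlier results of these data known. The symbols picked out 66 of the 24607 genes in the deposited table: 19 semaphorins, 9 plexins, 2 neuropilins, 8 ephrins (5 of type A and 3 of type B), 13 Eph receptors (8 of type A and 5 of type B), 3 Slits, 4 Robos, 4 netrins and 4 Unc5 receptors. The cells in all 3 groups were mouse bone marrow-derived macrophages of genotype CX3CR1-gfp/+, one Cx3cr1 allele of which carries green fluorescent protein, differentiated in 50 ng/ml M-CSF, the macrophage growth factor, and labelled with a time of 5 days. The groups were co-culture with neurons of the dorsal root ganglion (DRG), the ganglion that houses the cell bodies of sensory neurons, TGF-β at 0.02 ng/ml, and monoculture. Each group had 3 libraries (1 to 3) of cells sorted on CD11b and CD64, from 3 mice per the design text. Whether every group came from the same animals, and the age and genotype of the DRG donors, are not given in the sources used here. If the libraries of a group were not separate animals, the p-values measure a spread that may be technical.

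Semaphorins, ephrins, Slits and netrins are cell surface or secreted proteins that attract or repel growing axons. Plexins, often together with neuropilins, are receptors for semaphorins, Eph receptor tyrosine kinases bind ephrins, Robo receptors bind Slits, and Unc5 receptors bind netrins. Ephrins and several semaphorins are membrane proteins that can also signal back into the cell that carries them, and many of these proteins also act in immune cell adhesion and migration. Macrophages are known both as sources and as receivers of such signals.

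Library depth, in M reads (M, 1e6), was 133.8 to 308.8 in co-culture, 46.8 to 151.6 for TGF-β and 73.4 to 135.6 for monoculture, and 1 read was worth 0.346 to 2.27 normalized counts. All 9 macrophage markers in the table, the sort antigens among them, had reads in every group. Markers of other cells were also higher in co-culture. Of all genes tested, 15.9% were called higher and 15.0% lower in co-culture than in monoculture, the shares to set beside the marker counts below. The 16 fibroblast markers in the table summed to 6596 to 9637 normalized counts in co-culture, against 23.3 to 128.9 for TGF-β and 43.4 to 133.5 for monoculture, and all 13 that were tested rose against monoculture, 11 of them tested only through co-culture; Mfap5 and Thy1 were at 0 in every TGF-β and monoculture library. Of 15 Schwann cell and glial markers, 8 rose, 7 of them tested only through co-culture, and 3 fell, and their sum was 23200 to 29536 in co-culture, against 57403 to 61065 for TGF-β and 66600 to 82788 for monoculture, most of it Pmp22. Ngfr and Foxd3 had reads only in co-culture. The 16 sensory neuron markers summed to 615 to 893.7 in co-culture, against 8111 to 10758 for TGF-β and 8771 to 10077 for monoculture, most of it Uchl1, which fell. Of the 5 that were tested, Tubb3 rose against monoculture, at 88.0, 87.5 and 101.7 in co-culture, 13.5, 6.56 and 13.6 under TGF-β and 55.2, 8.06 and 17.8 in monoculture. Nefm had 2.77, 14.1 and 31.9 in co-culture and no read elsewhere, while Isl1, Calca and Snap25 were at 0 in co-culture 1 and 2. Of 6 tested endothelial markers 4 rose, among them Egfl7, which was tested only through co-culture, and 2 fell. The 9 in the table summed to 4731 to 5443 in co-culture, against 6440 to 7433 for TGF-β and 8071 to 8560 for monoculture, most of it Vwf and Kdr, which fell, whereas Pecam1 was at 245.0 to 366.1 in co-culture, 27.3 to 56.8 for TGF-β and 21.1 to 58.1 for monoculture. Reads of mitochondrial ribosomal RNA made up 12.3% to 15.0% of each co-culture library, against 11.5% to 14.9% for TGF-β and 10.4% to 11.5% for monoculture, so that co-culture lay wholly above monoculture. The Y-linked gene Ddx3y was at 57.8 and 58.5 in co-culture 2 and 3 and at 0 in TGF-β 2 and 3 and monoculture 2 and 3, while replicate 1 of each group held at least 8547. Xist, at 29030 or more in replicates 2 and 3 of each group, was at 221.7 in co-culture 1. It was at 9.77 in TGF-β 1 and 3.25 in monoculture 1. The part of these other cells and of RNA quality in the results below was not tested.

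In co-cultured macrophages the guidance genes changed in both directions. Epha2, Sema4b, Sema4c, Sema6d and Slit1 rose, and Sema3c, Plxna4, Unc5b, Plxna1 and Sema4d fell, whereas the neuropilins and Plxnb2, the most abundant of these genes, did not pass the test. Of the 66 genes, 46 had a normalized count of at least 10 in at least 3 libraries and were tested with limma on log2 of the value plus 10, in 1 fit over all genes, with calls at a Benjamini-Hochberg adjusted p under 0.05. Between co-culture and monoculture 18 of the 46 rose and 12 fell, against 15.9% higher and 15.0% lower of all 16328 genes tested, and the median log2 fold change was 0.28, against 0.03 over all genes tested. Of the 46, 10 passed the filter only because of the co-culture libraries. Among the 36 that also passed without them, 10 rose and 12 fell (median -0.13), beside 14.1% higher and 15.9% lower of the 15322 genes filtered in the same way. Since these are bulk libraries, fewer cells of a type and less RNA per cell cannot be told apart.

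**Figure D1:**
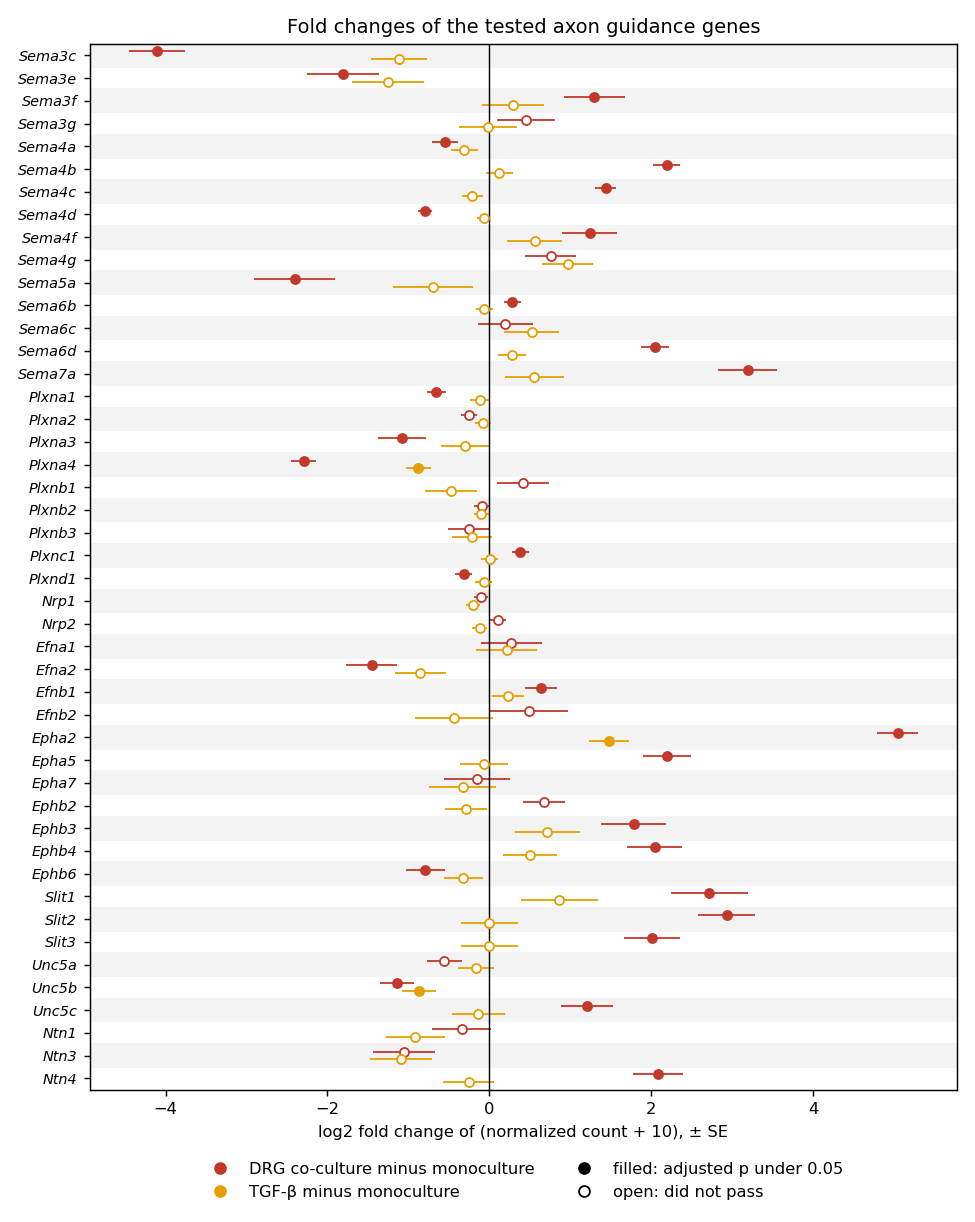
Log2 fold changes (estimate ± SE, limma) of the 46 tested genes, ordered by family, for DRG co-culture minus monoculture (red) and TGF-β minus monoculture (orange), with filled points for adjusted p under 0.05. In co-culture 18 points are filled on the right and 12 on the left, and with TGF-β only those of Epha2, Plxna4 and Unc5b are filled. The fitted values of Slit2, Slit3 and Sema4f, at 0 reads in all monoculture libraries, depend on the added 10 and are not bounds.

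The largest fitted rise among the guidance genes was that of Epha2, a receptor tyrosine kinase for A-type ephrins. Epha2 had 2204, 2097 and 1371 normalized counts in co-culture, 125.5, 166.1 and 152.3 with TGF-β, and 69.8, 42.6 and 32.5 in monoculture. The 3 groups did not overlap: every co-culture library lay above every TGF-β library, and these lay above every monoculture library. The log2 fold change between co-culture and monoculture was 5.05 ± 0.25 (estimate ± SE, limma adjusted p = 3.5e-09), a ratio of means of 39.1. Per kb of exon, Epha2 made up 98.1% ± 0.50 of all EphA receptor signal in co-culture, 91.3% ± 1.70 with TGF-β and 70.1% ± 16.2 in monoculture (SD, n = 3 each), and it stood at rank 11, 20 and 25 of the 65 guidance genes with a known exon length.

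The promoters of Epha2 and Unc5b are shown because these genes, with Plxna4, were called both in co-culture and with TGF-β, and that of Sema7a because it had the highest co-culture level of the genes that passed the filter only through co-culture. The windows are 300 bases around the RefSeq start, most of them before it, on build GRCm38.p6 and along the strand of the gene. They lie at chr4:141300971-141301270 on the plus strand for Epha2, chr10:60831532-60831831 on the minus strand for Unc5b and chr9:57939862-57940161 on the plus strand for Sema7a. Capitals mark the letters CAGAC, or their reverse complement, the core of the element that SMAD proteins, the transcription factors of TGF-β signalling, bind.
Epha2: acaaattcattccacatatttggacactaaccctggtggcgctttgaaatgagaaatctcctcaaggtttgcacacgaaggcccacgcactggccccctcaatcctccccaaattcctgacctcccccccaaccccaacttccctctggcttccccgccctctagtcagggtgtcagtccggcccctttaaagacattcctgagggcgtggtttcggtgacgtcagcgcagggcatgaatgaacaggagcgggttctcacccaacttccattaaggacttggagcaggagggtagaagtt
Unc5b: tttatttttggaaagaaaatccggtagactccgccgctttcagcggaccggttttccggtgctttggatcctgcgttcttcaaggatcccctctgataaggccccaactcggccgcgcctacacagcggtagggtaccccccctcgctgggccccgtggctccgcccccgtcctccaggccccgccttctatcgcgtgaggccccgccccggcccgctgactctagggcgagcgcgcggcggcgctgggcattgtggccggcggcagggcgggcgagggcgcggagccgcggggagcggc
Sema7a: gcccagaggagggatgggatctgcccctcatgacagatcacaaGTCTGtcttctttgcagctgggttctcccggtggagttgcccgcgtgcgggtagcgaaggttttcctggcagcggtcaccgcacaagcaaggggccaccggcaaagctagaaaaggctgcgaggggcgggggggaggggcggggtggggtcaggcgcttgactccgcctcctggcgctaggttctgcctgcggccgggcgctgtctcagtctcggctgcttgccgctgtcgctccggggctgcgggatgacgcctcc
The windows of Epha2 and Unc5b held no match and that of Sema7a held 1. These letters are common, being present in 49.6% of all 32851 promoter windows and, counted per gene over any listed window, in 53.2% of 27025 genes. Of the guidance genes, 57 were in the promoter table and 35 had a match, among them 11 of 16 that rose, 3 of 10 that fell and 10 of 15 that did not pass the test between co-culture and monoculture. The AP-1 site TGACTCA, searched on both strands, was in 2 of the 57, both among the 16, and in 5.95% of all genes. A match is a description of the letters and not of binding.

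Among the other Eph receptors and the ephrins, the B-type receptors moved both ways. Ephb6, an Eph receptor that lacks kinase activity, had 91.8, 81.3 and 93.0 normalized counts in co-culture, 131.5, 100.5 and 152.3 with TGF-β, and 125.0, 208.3 and 158.1 in monoculture. All co-culture libraries were below the others, and Ephb6 fell by 0.79 ± 0.24 on the log2 scale against monoculture (adjusted p = 0.0239). That call was lost without co-culture 1 (adjusted p = 0.0583), co-culture 2 (0.0841) or monoculture 2 (0.105). Ephb2, a receptor for B-type ephrins, had 147.9, 108.6 and 149.5 in co-culture, 83.4, 52.4 and 59.1 with TGF-β, and 79.6, 71.4 and 90.7 in monoculture. The co-culture libraries were the 3 highest, but the difference from monoculture did not pass (0.68 ± 0.25, adjusted p = 0.0591). Ephb3 rose to 57.6 ± 19.5 in co-culture, against 10.9 ± 9.94 in monoculture (mean ± SD, n = 3 each; 1.79 ± 0.40, adjusted p = 0.0034). Ephb4 had 36.0 ± 10.3 in co-culture, 6.0 ± 4.72 with TGF-β and 1.08 ± 1.87 in monoculture, and Epha5 had 38.3 ± 5.48 in co-culture, 0 with TGF-β and 0.517 ± 0.895 in monoculture. Both were called higher against monoculture (adjusted p = 0.000323 for Ephb4 and 5.39e-05 for Epha5), but passed the filter only through co-culture.

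Efnb1, the most abundant ephrin and a transmembrane ligand of EphB receptors, had 317.7, 360.2 and 328.2 normalized counts in co-culture, 322.4, 207.6 and 234.1 with TGF-β, and 201.3, 253.2 and 185.2 in monoculture. Co-culture did not overlap with monoculture but did with TGF-β, where library 1 was as high as co-culture. Efnb1 rose by 0.64 ± 0.20 on the log2 scale against monoculture (adjusted p = 0.0244). That call was lost without co-culture 1 (adjusted p = 0.0539), 2 (0.0936) or 3 (0.0533) and without monoculture 1 (0.0624) or 3 (0.0789). Efna2, an A-type ephrin attached to the membrane by a lipid anchor, fell to 15.5 ± 4.94 in co-culture, against 59.7 ± 14.1 in monoculture, with 28.9 ± 10.2 under TGF-β (co-culture minus monoculture -1.45 ± 0.31, adjusted p = 0.00256). Efna1, Efnb2 and Epha7 had means of 7.05 to 50.3 in the 3 groups and did not pass in any comparison. Per kb of exon, Efnb1 held 89.4% to 91.4% of the ephrin-B signal in the 3 groups, as group means.

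The semaphorins, which signal to plexins on neighbouring cells, gave 5 rises and 5 falls among the 11 genes that passed the filter without co-culture, beside 14.1% and 15.9% of all genes filtered in that way. Of 4 tested only through co-culture, 2 were called higher. The most abundant of them, Sema4d, a transmembrane ligand of B-type plexins and of the immune receptor CD72, had 17092, 17660.5 and 18554 normalized counts in co-culture, 27579.6, 28331 and 32429 with TGF-β, and 30909, 31908 and 29764 in monoculture. TGF-β and monoculture overlapped and co-culture was below both in all libraries. Sema4d fell by 0.80 ± 0.08 on the log2 scale against monoculture (adjusted p = 4.81e-06). Sema3c, a secreted ligand that acts through neuropilins, had 77.6, 41.4 and 92.4 in co-culture, 582.4, 852.2 and 443.1 with TGF-β, and 1260.0, 2026 and 905.1 in monoculture. The groups did not overlap, with TGF-β in between, and Sema3c fell by 4.11 ± 0.35 on the log2 scale against monoculture (adjusted p = 4.51e-06). It was the largest fitted fall among the guidance genes, a ratio of means of 0.0504.

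Of the other membrane-bound semaphorins of classes 4 and 6, Sema4b, Sema4c, Sema6b and Sema6d rose and Sema4a fell. Sema4b had 2981, 3945 and 2842 normalized counts in co-culture, 648.6, 723.3 and 934.0 with TGF-β, and 584.5, 824.2 and 698.2 in monoculture. Sema4c, a ligand of plexin-B2, had 2882, 3195 and 3052 in co-culture, 774.8, 1110.1 and 1047.6 with TGF-β, and 1081, 1263 and 1021 in monoculture. Sema6d, a ligand of plexin-A1, had 795.2, 985.3 and 710.3 in co-culture, 243.5, 257.9 and 204.5 with TGF-β, and 201.3, 176.1 and 197.6 in monoculture. For each of these 3 genes the lowest co-culture library was more than 2 times the highest library of the other groups. The log2 fold changes against monoculture were 2.2 ± 0.17 for Sema4b (adjusted p = 2.41e-07), 1.44 ± 0.13 for Sema4c (1.42e-06) and 2.05 ± 0.17 for Sema6d (4.84e-07). The exons of Sema4c overlap by 334 bases those of D430040D24Rik on the opposite strand, which had 10.4 to 79.7 normalized counts, and whether counting used the strand is not given in the sources used here.

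Sema6b and Sema4a changed less. Sema6b, a ligand of A-type plexins, had 3499, 3666 and 3876 normalized counts in co-culture, 2612, 2727 and 3393 with TGF-β, and 3056, 2910.0 and 3080.1 in monoculture. Co-culture was above the other groups in each library, with a log2 fold change of 0.29 ± 0.10 against monoculture (adjusted p = 0.0437). The call was lost without any 1 of the 6 libraries of co-culture and monoculture (adjusted p = 0.0657 to 0.138) and with no filter (0.072). Sema4a, first known for its part in T cell priming, had 552.6, 417.3 and 516.3 in co-culture, 538.1, 493.9 and 740.8 with TGF-β, and 768.0, 713.7 and 692.0 in monoculture. It was lower in co-culture than in monoculture in every library (-0.55 ± 0.16, adjusted p = 0.0206), a call lost without co-culture 2 (0.106) or monoculture 1 (0.0648).

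Among semaphorins of lower level, the secreted Sema3f rose to 77.1 ± 5.27 normalized counts in co-culture, against 26.3 ± 10.1 in monoculture (1.3 ± 0.38, adjusted p = 0.0173), a call lost without co-culture 1 (0.0576) or monoculture 2 (0.0738). Sema3e, the ligand of plexin-D1, fell to 13.2 ± 5.87 in co-culture, against 72.1 ± 26.03 in monoculture (-1.81 ± 0.45, adjusted p = 0.00639). Sema5a, a transmembrane semaphorin with thrombospondin repeats, fell to 4.23 ± 1.74, against 78.0 ± 57.8 in monoculture (-2.40 ± 0.50, adjusted p = 0.00209), with the monoculture libraries ranging from 25.98 to 140.3. Sema7a, a lipid-anchored semaphorin that binds plexin-C1 and integrins, had 83.2, 116.4 and 83.7 in co-culture, 8.27, 15.3 and 0 with TGF-β, and 0, 3.45 and 0.775 in monoculture (adjusted p = 1.03e-05 against monoculture). Sema4f had 13.7 ± 2.68 in co-culture and no read in monoculture, at least 3.87-fold higher if each monoculture library held 3 reads (adjusted p = 0.013), and its call was lost without co-culture 1 (0.0576). Sema3g, Sema4g and Sema6c, at 1.32 to 40.9 as group means, did not pass in any comparison. Sema7a and Sema4f passed the filter only through co-culture.

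**Figure D2:**
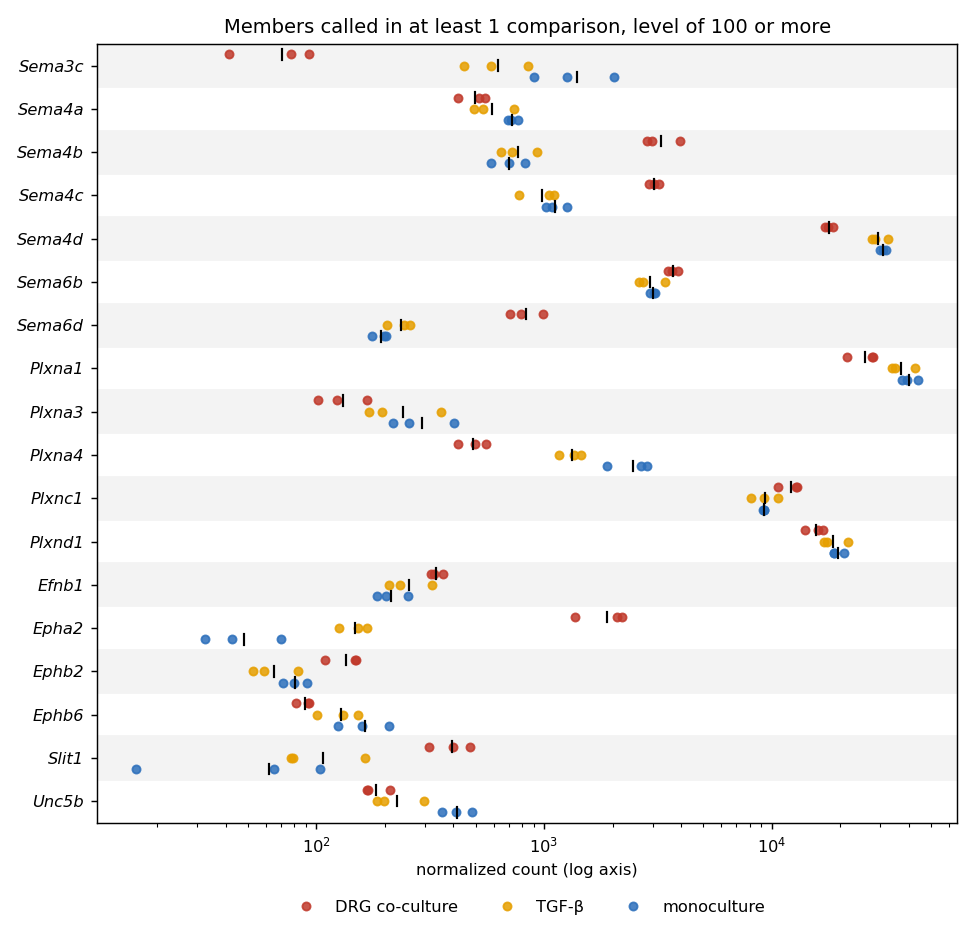
Normalized counts (log axis) of the 18 guidance genes that were called in at least 1 comparison and had a group mean of at least 100, one point per library and a black bar at each group mean, for DRG co-culture, TGF-β and monoculture. For Epha2, Sema3c and Plxna4 the 3 groups lie apart with TGF-β in the middle, whereas for Sema4b, Sema4c and Sema4d the TGF-β and monoculture points overlap and co-culture stands off.

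The main genes were placed with the GENCODE M21 annotation of mm10. Epha2 (ENSMUSG00000006445) lay on chromosome 4 from 141301240 to 141329384, plus strand, and Sema3c (ENSMUSG00000028780) lay on chromosome 5 from 17574281 to 17730268, plus strand. Sema4b (ENSMUSG00000030539) lay on chromosome 7 from 80186841 to 80226527, plus strand, and Sema4c (ENSMUSG00000026121) lay on chromosome 1 from 36548639 to 36558349, minus strand. Sema4d (ENSMUSG00000021451) lay on chromosome 13 from 51685529 to 51793747, minus strand, and Sema6d (ENSMUSG00000027200) lay on chromosome 2 from 124089969 to 124667770, plus strand. Plxna1 (ENSMUSG00000030084) lay on chromosome 6 from 89316314 to 89362620, minus strand, and Plxna4 (ENSMUSG00000029765) lay on chromosome 6 from 32144268 to 32588192, minus strand. Slit1 (ENSMUSG00000025020) lay on chromosome 19 from 41600257 to 41743665, minus strand, and Unc5b (ENSMUSG00000020099) lay on chromosome 10 from 60762593 to 60831581, minus strand.

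Per kb of exon, the scale on which different genes can be set side by side, the make-up of the semaphorin family shifted in co-culture. Sema4d accounted for 49.0% ± 1.56 of the semaphorin signal in co-culture, 74.3% ± 1.01 with TGF-β and 72.8% ± 0.66 in monoculture (SD, n = 3 each). Sema4c accounted for 14.0% ± 0.25 in co-culture, 4.12% ± 0.65 with TGF-β and 4.42% ± 0.31 in monoculture. Sema4b accounted for 12.2% ± 1.98 in co-culture, 2.62% ± 0.25 with TGF-β and 2.25% ± 0.33 in monoculture, and Sema6b for 19.6% ± 0.69 in co-culture, 14.2% ± 0.70 with TGF-β and 13.8% ± 0.98 in monoculture. For all 4 genes the co-culture libraries did not overlap with either of the other groups. These shares are not independent, since a lower level of Sema4d by itself raises the shares of the other genes. The level of Sema6b itself had a ratio of means of only 1.22 between co-culture and monoculture. The summed level of the family was 4725 ± 183 normalized counts per kb in co-culture, 5162 ± 492 with TGF-β and 5519 ± 231 in monoculture, a smaller difference than that within the family, and was not tested.

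**Figure D3:**
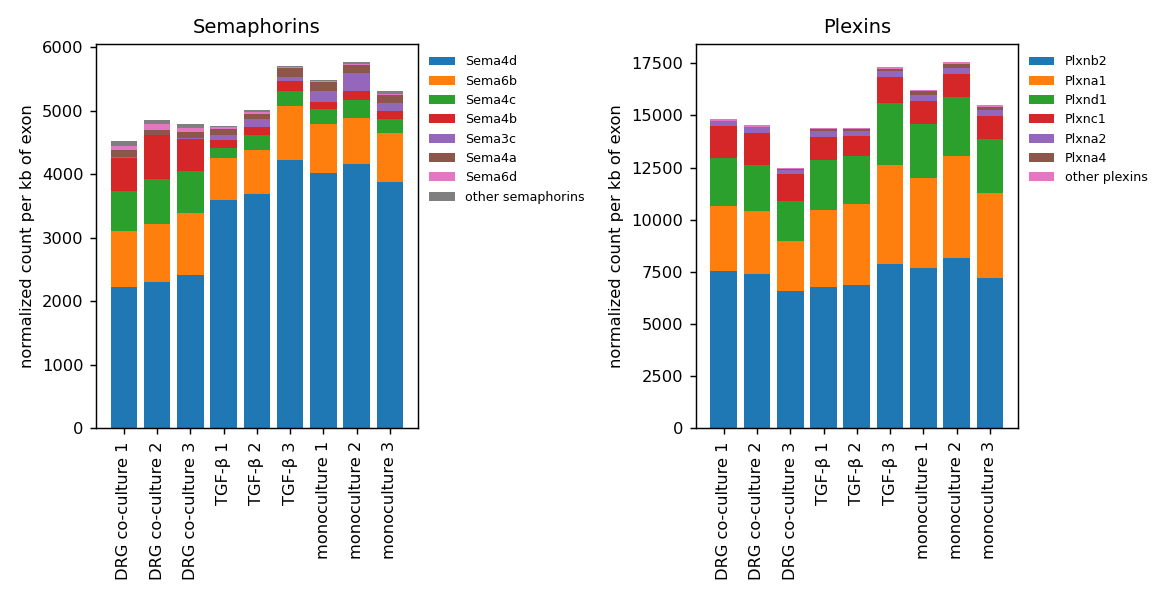
Normalized count per kb of exon in each of the 9 libraries, stacked by gene, for the 19 semaphorins (left) and the 9 plexins (right). Sema4d fills about the same height in the TGF-β and monoculture bars and is shorter in co-culture, where Sema4c and Sema4b are taller, while Plxnb2 is the largest plexin in every library.

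Plexins are the receptors for semaphorins, and here 1 of 9 rose and 4 fell in co-culture, beside the 15.9% and 15.0% of all genes tested. Plxnb2, the receptor of Sema4c and Sema4d and the highest of the guidance genes per kb in all 3 groups, had 55428 ± 3952 normalized counts in co-culture, 55412 ± 4723 with TGF-β and 59234 ± 3796 in monoculture (mean ± SD, n = 3 each; co-culture minus monoculture -0.10 ± 0.09, adjusted p = 0.492). Plxna1, a receptor of Sema6d and of class 3 semaphorins, had 27871, 27598 and 21441 in co-culture, 33675, 34795 and 42775 with TGF-β, and 39315, 44066 and 37194 in monoculture. Co-culture was the lowest group in every library, and Plxna1 fell by 0.66 ± 0.12 on the log2 scale against monoculture (adjusted p = 0.000762). Plxna4, a receptor of Sema3a and class 6 semaphorins, had 416.8, 496.2 and 555.5 in co-culture, 1167, 1350.4 and 1452 with TGF-β, and 2822, 2679 and 1889.9 in monoculture. The groups did not overlap, and Plxna4 fell by 2.3 ± 0.16 in co-culture against monoculture (adjusted p = 6.58e-08).

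The other called plexins changed by less or were of low level. Plxna3 had 122.7, 167.2 and 101.7 normalized counts in co-culture, 170.6, 194.5 and 352.2 with TGF-β, and 217.6, 255.5 and 402.9 in monoculture, with every co-culture library below the others (-1.08 ± 0.30, adjusted p = 0.012; 0.0606 without monoculture 3). Plxnd1, the receptor of Sema3e, had 16856, 16046 and 14039.6 in co-culture, 17429, 16950.5 and 21643 with TGF-β, and 18838, 20865 and 18704 in monoculture. Its fall of 0.32 ± 0.10 (adjusted p = 0.0328) was lost without co-culture 2 (0.064) or 3 (0.138), without monoculture 1 (0.0529) or 2 (0.129), and with no filter (0.0518). Plxnc1, the receptor of Sema7a, had 12769, 12923 and 10664 in co-culture, 9236, 8138 and 10626 with TGF-β, and 9294, 9194 and 9292 in monoculture. It rose by 0.38 ± 0.10 (adjusted p = 0.0108), and the call was lost without co-culture 1 (0.0536) or 2 (0.0552). Plxna2, Plxnb1 and Plxnb3 did not pass in any comparison, with group means of 8.16 for Plxnb1 with TGF-β to 4827 for Plxna2 in monoculture.

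The neuropilins, co-receptors for class 3 semaphorins and for vascular endothelial growth factor, were next to Plxnb2 in level and did not pass in any comparison. Nrp1 had 52528 ± 2234 normalized counts in co-culture, 49143 ± 177 with TGF-β and 56504 ± 4483 in monoculture (co-culture minus monoculture -0.10 ± 0.08, adjusted p = 0.403). Nrp2 had 74817 ± 2786 in co-culture, 63904 ± 3399 with TGF-β and 69615 ± 7577 in monoculture (0.11 ± 0.10, adjusted p = 0.436). Per kb of exon, Plxnb2, Nrp2, Nrp1, Plxna1 and Sema4d took ranks 1 to 5 in each group. In co-culture Plxnb2 at 7180 ± 512 per kb, Nrp2 at 6318 ± 235 and Nrp1 at 5368 ± 228 were followed by Plxna1 at 2832 ± 402 and Sema4d at 2314 ± 96.0, and the libraries of the last 2 overlapped. In monoculture Nrp2 at 5879 ± 639.8 and Nrp1 at 5775 ± 458 overlapped, as did Plxna1 at 4439 ± 389 and Sema4d at 4019 ± 139.8. The 970 bases of Plxna1 exon that overlap the antisense gene Gm26811, which had 47.8 to 286.6 normalized counts, are a further limit on Plxna1, since strand use in counting is not given.

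Slits are secreted repellents whose receptors are the Robos, and Slit1 rose in co-culture, where Slit2 and Slit3 had reads that they lacked in the other groups. Slit1 had 472.6, 397.0 and 312.3 normalized counts in co-culture, 77.4, 78.7 and 163.6 with TGF-β, and 64.9, 16.1 and 103.8 in monoculture. Co-culture was the highest group in every library, and the log2 fold change against monoculture was 2.72 ± 0.48 (adjusted p = 0.00105). Slit2 had 43.7, 114.9 and 56.5 in co-culture and no read in any TGF-β or monoculture library. With 3 reads taken as the limit of each library at 0, Slit2 was at least 20.2-fold higher in co-culture than in monoculture (adjusted p = 1.53e-05). Slit3 had 14.9, 40.6 and 41.9 in co-culture and no read elsewhere, at least 9.15-fold higher than monoculture and 6.23-fold higher than TGF-β (adjusted p = 0.000469 against monoculture). Slit2 and Slit3 passed the filter only through co-culture and had no read elsewhere, so their p-values come from genes that had to differ. Some markers of other cell types also had no read elsewhere, such as Mfap5 and Thy1 of fibroblasts, Ngfr and Foxd3 of glia and Nefm of neurons. Other markers on the same lists went the other way. The glial Pmp22 and the neuronal Uchl1 were lower in every co-culture library than in any other library. Slit1 had reads in all 9 libraries. The part of other cells in the levels of the Slits was not tested. None of Robo1 to Robo4 passed the filter, and the highest value was 29.2 for Robo1 in co-culture 3.

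Netrins bind Unc5 receptors. In co-culture Unc5b fell, while Ntn4 and Unc5c were called higher but passed the filter only through co-culture. Unc5b, a repulsive netrin receptor also found on macrophages and endothelium, had 167.4, 168.8 and 210.6 normalized counts in co-culture, 184.1, 198.9 and 297.7 with TGF-β, and 412.4, 355.7 and 481.2 in monoculture. All co-culture and TGF-β libraries were below all monoculture libraries, while these 2 groups overlapped. Unc5b fell by 1.15 ± 0.21 on the log2 scale in co-culture against monoculture (adjusted p = 0.00074). Unc5a had 280.3 ± 68.6 in co-culture, 363.8 ± 22.2 with TGF-β and 421.6 ± 135.0 in monoculture and did not pass (-0.55 ± 0.22, adjusted p = 0.075). Its exons share 34 bases with those of Hk3 on the opposite strand, which had at least 15950.0 normalized counts in every library. Unc5c had 15.8 ± 6.43 in co-culture, 0 with TGF-β and 1.08 ± 1.87 in monoculture (adjusted p = 0.011, and 0.0613 without co-culture 3).

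The netrin ligands were low throughout. Ntn4, a netrin that also binds laminins, had 34.3, 55.5 and 37.9 normalized counts in co-culture, 0.752, 0 and 0 with TGF-β, and 1.62, 4.6 and 0.775 in monoculture (adjusted p = 0.000131 against monoculture). Ntn4 and Unc5c passed the filter only through co-culture. Ntn1, the ligand best known for guiding spinal commissural axons, had 69.4 ± 24.9 in co-culture, 43.5 ± 17.1 with TGF-β and 91.2 ± 37.6 in monoculture and did not pass. Ntn3 had 22.3 ± 15.5 in co-culture, 20.0 ± 7.86 with TGF-β and 53.5 ± 15.6 in monoculture and did not pass either (adjusted p = 0.0518 in co-culture and 0.179 with TGF-β, each against monoculture). The identifier of Ntn3 was not matched to the annotation, so it has no level per kb. The 10 genes that passed the filter only through co-culture needed libraries in which fibroblast, several glial and some endothelial markers were also high. The part of such cells in their levels was not tested. Of these genes, Sema4g was not highest in co-culture, with a mean of 9.38 there and 12.2 with TGF-β.

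**Figure D4:**
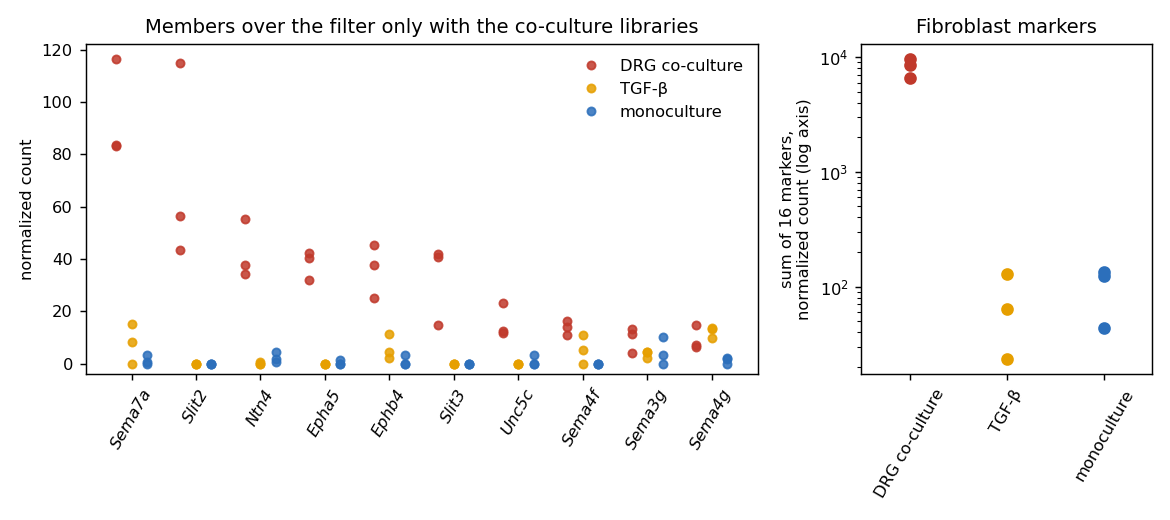
Left, normalized counts of the 10 guidance genes that passed the filter only through the co-culture libraries, one point per library. Sema4g, one of these, had its highest group mean with TGF-β. Right, the summed normalized count (log axis) of 16 fibroblast markers in the same libraries, 6596 to 9637 in co-culture and at most 133.5 elsewhere.

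TGF-β alone moved few guidance genes. Against monoculture 1 of the 46 tested genes rose and 2 fell, beside 1.13% higher and 1.39% lower of all genes tested, and the median log2 fold change was -0.11, against -0.01 over all genes tested. Epha2 rose to 148 ± 20.6 normalized counts with TGF-β, against 48.3 ± 19.3 in monoculture (1.48 ± 0.25, adjusted p = 0.00575), a ratio of means of 3.06, and this call was kept under every alternative run. Plxna4 fell to 1323 ± 144 with TGF-β, against 2464 ± 502 in monoculture (-0.88 ± 0.16, adjusted p = 0.00839), but not without TGF-β 1 (0.0646) or monoculture 2 (0.0519). Unc5b fell to 226.9 ± 61.8 with TGF-β, against 416.4 ± 62.85 in monoculture (-0.87 ± 0.21, adjusted p = 0.0469). The Unc5b call was lost in 9 of 15 alternatives, among them the edgeR test on recovered reads (0.0534) and without TGF-β 1 (0.217) or 2 (0.161) or monoculture 1 (0.101), 2 (0.0702) or 3 (0.145). The comparison of co-culture with monoculture, given above for these 3 genes, uses the same monoculture libraries.

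Sema3c, Sema4b, Sema4c, Sema6d, Sema4d and Slit1, all called in co-culture, did not pass the test with TGF-β. Sema3c had a log2 fold change of -1.12 ± 0.35 between TGF-β and monoculture (adjusted p = 0.139), with every TGF-β library below every monoculture library. Sema4b had 0.13 ± 0.17 (0.806), Sema4c -0.21 ± 0.13 (0.519), Sema6d 0.28 ± 0.17 (0.497), Sema4d -0.07 ± 0.08 (0.774) and Slit1 0.86 ± 0.48 (0.443). TGF-β 2 and 3 were the shallowest libraries, in which 1 read was worth 2.19 and 2.27 normalized counts, so small differences of genes below about 10 normalized counts were not detectable there.

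Set directly against TGF-β, co-culture gave 15 higher and 5 lower of the 46 tested genes, beside 13.4% higher and 11.9% lower of all genes tested. The median log2 fold change was 0.29, against 0.01 over all genes tested, and the comparison shares its libraries with the other 2. Among the 36 genes that passed the filter without co-culture, 8 were higher and 5 lower (median 0.04), beside 11.7% and 12.7% of the genes filtered in the same way. Epha2 was higher in co-culture by 3.57 ± 0.25 on the log2 scale (adjusted p = 1.81e-07), Sema4b by 2.07 ± 0.17 (8.16e-07), Sema6d by 1.77 ± 0.17 (3.38e-06) and Sema4c by 1.64 ± 0.13 (7.01e-07). Lower in co-culture than with TGF-β were Sema3c (-2.99 ± 0.35, adjusted p = 7.97e-05), Plxna4 (-1.42 ± 0.16, 1.23e-05), Sema4d (-0.73 ± 0.08, 1.8e-05), Plxna1 (-0.53 ± 0.12, 0.00456) and Sema5a (-1.71 ± 0.50, 0.0224). Unc5b did not pass between co-culture and TGF-β (-0.28 ± 0.21, adjusted p = 0.381).

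Ephb2 passed in that comparison alone, at 135.4 ± 23.2 normalized counts in co-culture and 65.0 ± 16.3 with TGF-β (0.96 ± 0.25, adjusted p = 0.0121). It did not pass without co-culture 1 (0.0603) or TGF-β 2 (0.05003). Slit1 was higher in co-culture than with TGF-β by 1.85 ± 0.48 (adjusted p = 0.0145), but not without co-culture 1 (0.0564), TGF-β 1 (0.0597) or TGF-β 2 (0.0624). Plxnc1 was higher by 0.38 ± 0.10 (adjusted p = 0.014), but not without co-culture 1 (0.0678), co-culture 2 (0.0707) or TGF-β 2 (0.0676). Sema6b was higher by 0.35 ± 0.10 (adjusted p = 0.0207), but not without co-culture 2 (0.0621) or 3 (0.0753) or TGF-β 1 (0.103) or 2 (0.0755). The Sema5a call was lost without co-culture 2 (0.0724) or 3 (0.0603) or TGF-β 3 (0.0767) and with an added constant of 50 (0.126).

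The 20 guidance genes that were not tested had at most 43.7 normalized counts in any library. They were Sema3a, Sema3b, Sema3d and Sema6a, Efna3, Efna4, Efna5 and Efnb3, Epha1, Epha3, Epha4, Epha8, Epha10 and Ephb1, Robo1 to Robo4, Unc5d and Ntn5. Sema3b had 43.7, 8.60 and 25.2 in co-culture and at most 5.42 elsewhere, and Sema6a had 10.4, 42.2 and 4.65 in co-culture and at most 2.19 elsewhere. Of the 20, 4 had no read in any TGF-β or monoculture library.

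The partners of these families in the cell gave a wider view of the pathway, from lists that were also chosen with earlier results of these data known. Of 24 tested co-receptors and other receptors, 5 rose, 2 of them tested only through co-culture, and 12 fell in co-culture against monoculture (median log2 fold change -0.40), beside 15.9% higher and 15.0% lower of all genes tested. L1cam, an adhesion molecule of axons that forms complexes with neuropilin, fell to 606.5 ± 15.5 normalized counts in co-culture, against 5250.1 ± 519.98 in monoculture (-3.09 ± 0.10, adjusted p = 7.33e-11). Flrt2, a membrane protein that binds Unc5 receptors, fell to 237.3 ± 106.1, against 8766 ± 585 (-5.23 ± 0.24, 1.02e-07). Cd72, an immune receptor of Sema4d, fell by 1.38 ± 0.10 (1.15e-07) and Cd44, the hyaluronan receptor, by 1.02 ± 0.11 (4.44e-06). With TGF-β 1 of the 24 rose and 5 fell (median -0.24), beside 1.13% higher and 1.39% lower of all genes tested. The netrin receptor Dscam rose to 57.8 ± 19.7 with TGF-β, against 6.92 ± 1.43 in monoculture (1.97 ± 0.29, adjusted p = 0.0025), and was at 64.0 ± 7.22 in co-culture. Kdr fell by 0.82 ± 0.13 (0.0031), Nrcam by 0.90 ± 0.16 (0.00643) and Sdc3 by 0.45 ± 0.10 (0.0309) with TGF-β.

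Of 13 tested further ligands and shedding enzymes, 6 were called higher and 1 lower in co-culture, beside 15.9% and 15.0% of all genes tested. But 4 of the 6 (Wnt5a, Spon1, Rgma and Cxcl12) were tested only through co-culture. Of the 9 others 2 rose and 1 fell, beside 14.1% higher and 15.9% lower of the genes that passed the filter without co-culture. With TGF-β limma called 0 of the 13, with 1 at an unadjusted p under 0.05 (median -0.05). Adam10, a protease that sheds ephrins and other membrane proteins, rose to 32069 ± 965 normalized counts in co-culture, against 21956 ± 2541 in monoculture (0.55 ± 0.10, adjusted p = 0.000481). Ndnf, a secreted neurotrophic protein, fell to 59.2 ± 9.59, against 363.6 ± 53.4 (-2.43 ± 0.23, 2.05e-06). Wnt5a had 49.3 ± 20.1 and Spon1 25.2 ± 11.5 in co-culture, both with no read in monoculture. Of 65 tested cytoplasmic effectors, 10 rose in co-culture, near the 15.9% of all genes tested, and 20 fell, beside 15.0% (median -0.04). Of the 10, Dpysl3 was tested only through co-culture. With TGF-β 2 of the 65 rose and 4 fell (median -0.08), beside 1.13% higher and 1.39% lower of all genes tested. Tiam1, an activator of the GTPase Rac, fell to 788 ± 83.4 in co-culture and 5105 ± 563 with TGF-β, against 8093 ± 261 in monoculture (adjusted p = 4e-11 for co-culture and 0.00283 for TGF-β).

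Ptk2, the focal adhesion kinase, fell to 887.5 ± 61.4 normalized counts in co-culture and 2814 ± 176 with TGF-β, against 4268 ± 199 in monoculture (adjusted p = 5.14e-10 and 0.00289). In co-culture the adaptor Nck2 fell by 1.54 ± 0.08 (adjusted p = 6.12e-09) and Srgap3, a Rac regulator that binds Robo, by 2.15 ± 0.13 (2.81e-08). With TGF-β the Ras regulator Rasa1 fell by 0.52 ± 0.08 (adjusted p = 0.00396), and Mical1, an actin oxidase that acts downstream of plexin-A, rose by 0.85 ± 0.10 (0.00034).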

How the data were processed

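RNA was measured in 9 libraries made from 10 ng RNA with a SMART-Seq stranded kit, per the labels' protocols. The submitters' processing notes list bcl2fastq 2.20, STAR 2.7.3, DESeq2 1.24.0, R 3.6.1 and build mm10, with no role or order; the annotation, the counting program and its use of strand are not given in the sources used here. The deposited signal values are whole read counts after division by a factor that is the same for every gene of a library: per library 100% of values were whole multiples of the smallest within 0.05, and reads were recovered from them.

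The 16328 genes that reached 10 in 3 or more libraries were tested with limma 3.58.1 (R 4.3.3; trend and robust variance) on log2 of the value plus 10, so folds of low genes are smaller than their ratios of means. All 9 libraries entered 1 fit with group as the factor. Called means a Benjamini-Hochberg adjusted p under 0.05 over all genes tested. Alternatives were edgeR 4.0.16 (quasi-likelihood) and DESeq2 1.42.0 on recovered reads, trimmed-mean scaling, added constants of 1 and 50, other filters, fits of 2 groups, a replicate block and leaving out each library. On the recovered reads edgeR called 4947 genes between co-culture and monoculture, 390 between TGF-β and monoculture and 4019 between co-culture and TGF-β, against 5033, 412 and 4128 with limma. The fit was tested on simulated data.

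Values of each library are given for genes called in at least 1 comparison with a group mean of at least 100. From 3 lists of pathway partners, the 4 called genes of smallest p per list against monoculture are named. The members and lists were chosen with earlier results of these data known. Levels per kb use GENCODE M21 exon lengths, matched for 65 of the 66 genes. A library with 0 reads of a gene has an upper limit of 3 reads (95%), which covers counting error only. Promoters are from RefSeq (GRCm38.p6).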

Additional observations from a re-analysis of the deposited data

How the results depend on the processing

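No call of a guidance gene changed direction in any alternative run. Of the calls between co-culture and monoculture 20 of 30 held in every alternative, of those between co-culture and TGF-β 15 of 20, and of those between TGF-β and monoculture 1 of 3 (Epha2). The held calls of co-culture against each other group included Epha5, Ephb4, Slit2, Slit3, Ntn4 and Sema7a, and against TGF-β also Unc5c. These genes passed the filter only through co-culture and were low or at 0 elsewhere, so their part of the tally is little evidence of stability. With a filter of at least 100 in 3 libraries, 8 genes were higher in co-culture than in monoculture and 8 than with TGF-β, since fewer genes were tested. Of the 2 guidance genes lower with TGF-β than in monoculture, 1 was called with 2 groups only, with an added constant of 1, with edgeR and with no filter, and 0 to 2 without 1 library. Over all genes, TGF-β against monoculture gave 907 calls with DESeq2 and 165 (without TGF-β 1) to 939 (without TGF-β 3) with 1 library left out, against 412; the cause was not tested. Replicate 1 was male and replicates 2 and 3 female in every group by Ddx3y and Xist, but same-numbered libraries did not all deviate together (correlations -0.147 to 0.372) and were not treated as pairs; whether they share a mouse is not given. With the replicate block 4926, 397 and 3956 genes were called in co-culture and TGF-β against monoculture and in co-culture against TGF-β, and among guidance genes the call of Plxnd1 was lost (adjusted p = 0.0542). Depth limits the genes near 10 normalized counts, above all with TGF-β.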
